A study of Capra hircus with 2 samples.

Results

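miR-26a and miR-26b are the members of a small microRNA family that shares 1 seed, and both were read in the lactating mammary gland of dairy goats (Capra hircus). Mammary gland tissue was taken from 5 healthy Laoshan dairy goats of 4 years in the third lactation, 90 days after kidding for peak lactation and 210 days after kidding for late lactation. The total RNA of the 5 goats was pooled at each stage into 1 small RNA library, so that the spread between goats was lost and no test across animals was possible. The members were found as the tags (distinct read sequences) that contain nt 2 to 17 of miR-26a or miR-26b. They numbered 824 of the 659118 tags of both libraries, 570 for miR-26a and 254 for miR-26b, and all of them were counted without a filter on low values. The peak library held 19044002 clean reads and the late library 7385833. Levels are given as reads per 1000000 clean reads (RPM), where a single read stood for 0.0525 and 0.135 RPM, respectively. All intervals are exact 95% intervals of the counts, which leave out every error but that of counting, as PCR copies of a molecule are not independent reads.

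A microRNA guides the Argonaute protein to messenger RNAs that pair with its seed, the bases 2 to 8 from its 5′ end, and lowers their translation and stability. Genes of the miR-26 family lie in introns of the CTDSP genes, which encode small phosphatases linked to cell-cycle control, and the family is known to target cell-cycle genes and the chromatin regulator EZH2. In goat mammary epithelial cells it has been linked to triacylglycerol synthesis through INSIG1, an inhibitor of the processing of the lipogenic factor SREBP. The 3′ end of miR-26 is also a known substrate of terminal uridylyltransferases, which add U, and microRNAs in general can receive an A from terminal nucleotidyltransferases of the GLD2 kind. In the RefSeq annotation of the goat assembly ARS1.2, MIR26A lay within CTDSPL and MIR26B within CTDSP1. No read of these host genes was measured here, and the tags were not placed on a genome.

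The most abundant tag of each member over both libraries, called the leading form here, is shown first, with the seed in capitals. T in a tag stands for U in the RNA.
miR-26a, leading form of 22 nt: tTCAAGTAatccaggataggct
miR-26b, leading form of 22 nt: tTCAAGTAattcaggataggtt
The leading forms shared 20 of 22 nt, with the whole seed in common. They differed at 2 positions, written with the base of miR-26a first and counted from 1 at the 5′ end, C11T and C21T. The first of these lies inside nt 2 to 17 and assigned each read to a member, while the other lies at the 3′ end, where many reads were shorter.

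Both members were higher at the late than at the peak stage. miR-26a had 76467 reads at the peak stage, 4015 RPM (interval 3987 to 4044), and 85060 reads at the late stage, 11517 RPM (11439 to 11594). This is a log2 ratio of late over peak lactation of 1.52 (1.51 to 1.53), or 2.87-fold. miR-26b had 15279 reads at the peak stage, 802 RPM (790 to 815), and 20664 reads at the late stage, 2798 RPM (2760 to 2836). Its log2 ratio was 1.80 (1.77 to 1.83), or 3.49-fold. The size of the difference of miR-26a, and the order of the members, depended on which tags were summed. With the leading tag only, the log2 ratio was 2.15 for miR-26a and 1.76 for miR-26b, and without tags that end at nt 20, a choice made after the data were seen, it was 2.23 and 1.87. Together they made up 0.482% of the clean reads at the peak stage and 1.43% at the late stage. The stages did not overlap within the counting intervals for either member, but each stage is 1 pool and the differences had no replicate check.

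Of 26175 tags with at least 1 RPM in 1 of the libraries, 30.7% were at least 2-fold higher at the late stage and 40.1% at least 2-fold lower, so a 2-fold difference was common between these libraries. A narrower background was made of groups of tags that share nt 2 to 17 with a leading tag of 20 to 24 nt, that begin at the same base in at least 90% of their reads, and that hold at least 1000 reads in both libraries. Of the 80 groups of this kind, which include both members, 25.0% were at least 2-fold higher at the late stage and 17.5% at least 2-fold lower, and their median log2 ratio was -0.016. Both members were among the 20 groups past 2-fold higher. Summed over all their tags, the log2 ratio of miR-26a was exceeded by 13 groups and that of miR-26b by 10.

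**Figure D1:**
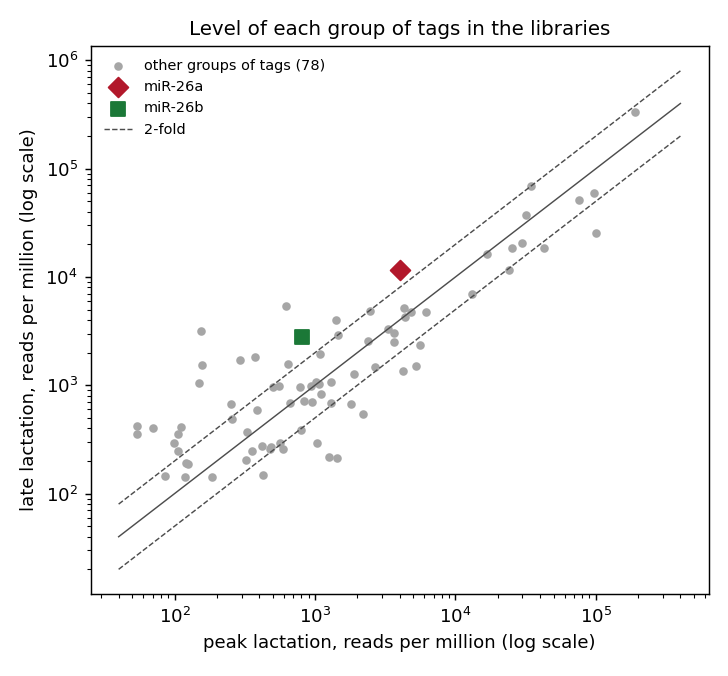
Reads per 1000000 clean reads of each of 80 groups of tags at the peak stage (x axis) and the late stage (y axis), both on log scales, 1 library each, with lines of equality and of 2-fold difference. miR-26a (4015 and 11517 RPM) and miR-26b (802 and 2798 RPM) lie above the upper 2-fold line, as do 18 other groups.

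Without the minimum of reads in both libraries, 248 of 689 groups had a fixed 5′ end, and the rest were not ranked. A low floor on the summed RPM of the leading tag still applied. Among the 248 groups, miR-26a took rank 20 at the peak stage and rank 12 at the late stage, and miR-26b rank 44 and rank 25. At the late stage the group just above miR-26a, led by tAATACTGccgggtaatgatgga, had 11691 RPM (11613 to 11769), which lay past the counting interval of miR-26a. The group just below it, led by tGTAAACAtccccgactggaagc, had 6936 RPM. At the peak stage miR-26b did not differ beyond counting error from the group below it, led by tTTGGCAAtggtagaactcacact, which had 795 RPM (782 to 808). The neighbours are given by their sequence, since no microRNA names were assigned to other tags.

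The pattern over the stages was also compared between groups, by the distance of the log2 ratios among 48 groups with at least 1000 RPM in 1 of the libraries. The group nearest to miR-26a was led by tGAGGGGCagagagcgagacttt, with 1407 RPM at the peak stage, 3967 RPM at the late stage and a log2 ratio of 1.49. miR-26b was the third nearest to miR-26a, and miR-26a was the nearest to miR-26b, at a distance of 0.28. With only 2 libraries this likeness describes a single ratio per group.

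miR-26a was the more abundant member at both stages. There were 5.005 reads of miR-26a per read of miR-26b at the peak stage (4.92 to 5.09) and 4.12 at the late stage (4.05 to 4.18). miR-26b thus held 16.7% of the reads of the family at the peak stage and 19.5% at the late stage. A ratio within a library does not depend on how the libraries are scaled, and the member ratio at the late stage was 0.822 times that at the peak stage (0.804 to 0.842). The direction of this difference rested on the shorter reads of miR-26a described next. With the leading forms alone, the member ratio was 3.24 at the peak stage and 4.23 at the late stage, and without reads that end at nt 20 it was 3.02 and 3.85, a choice made after the data were seen.

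Of misreading at nt 11, only the bases that neither member has there could be counted. Reads with A in place of the C of miR-26a (C11A) numbered 65 at the peak stage and 23 at the late stage, and reads with G (C11G) numbered 6 and 4. A C read as T at nt 11 cannot be told from miR-26b where the read ends before nt 21, the other position at which the members differ. At the next base of miR-26a the change of C to T was more frequent than the others, with 196 and 199 reads for C12T against 64 and 7 for C12A and 5 and 4 for C12G. The counts of C11A and C11G therefore do not measure a C read as T at nt 11. Reads assigned to miR-26b that carry the 3′ end of miR-26a, with C at nt 21, numbered 46 at the peak stage and 196 at the late stage, 0.301% and 0.949% of its reads. These can be miR-26a misread at nt 11 or miR-26b changed at nt 21, which was not tested.

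The forms of the 3′ end differed between the stages, and of the 2 members more in miR-26a. The sequences below are its 3 most abundant forms without an added base, shown because they differ only in where they end.
miR-26a, ends at nt 20: tTCAAGTAatccaggatagg
miR-26a, ends at nt 21: tTCAAGTAatccaggataggc
miR-26a, ends at nt 22: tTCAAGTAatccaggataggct
The tag of 20 nt led miR-26a at the peak stage, with 34833 reads (1829 RPM), ahead of the tag of 22 nt with 25168 reads (1322 RPM). At the late stage the tag of 22 nt had 43191 reads (5848 RPM) and the tag of 20 nt had 9787 reads (1325 RPM). The log2 ratio of late over peak lactation was therefore -0.47 (-0.50 to -0.43) for the tag of 20 nt and 2.15 (2.12 to 2.17) for the tag of 22 nt. The tag of 21 nt had 389 RPM at the peak stage and 2293 RPM at the late stage, a log2 ratio of 2.56 (2.52 to 2.60). The form of 20 nt was thus lower at the late stage while the longer forms of the same microRNA were higher.

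Counted over all tags of miR-26a, 45.9% of the reads ended at nt 20 with nothing added at the peak stage (45.5% to 46.2%) and 11.7% at the late stage (11.4% to 11.9%). Reads that ended at nt 21 made up 9.79% and 20.3%, and reads that ended at nt 22 made up 33.3% and 52.0%, respectively. The mean length of the reads was 20.99 nt at the peak stage and 21.7 nt at the late stage.

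miR-26b ended differently. Its forms that correspond to those of miR-26a are shown for comparison.
miR-26b, ends at nt 20: tTCAAGTAattcaggatagg
miR-26b, ends at nt 21: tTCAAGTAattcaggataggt
miR-26b, ends at nt 22: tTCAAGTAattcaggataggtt
Its leading form of 22 nt had 408 RPM at the peak stage and 1383 RPM at the late stage, a log2 ratio of 1.76 (1.72 to 1.80). The tag of 21 nt had 172 and 774 RPM, a log2 ratio of 2.17 (2.11 to 2.23), and the tag of 20 nt had 81.8 and 155 RPM, a log2 ratio of 0.92 (0.81 to 1.03). Reads that ended at nt 22 with nothing added made up 51.2% of miR-26b at the peak stage and 50.6% at the late stage, with overlapping intervals. Reads that ended at nt 20 made up 10.2% and 5.67%. The mean length was 21.6 nt at the peak stage and 21.7 nt at the late stage. Both members thus had a smaller share of the form ending at nt 20 at the late stage, with differences of -34.2 percentage points in miR-26a and -4.56 points in miR-26b.

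**Figure D2:**
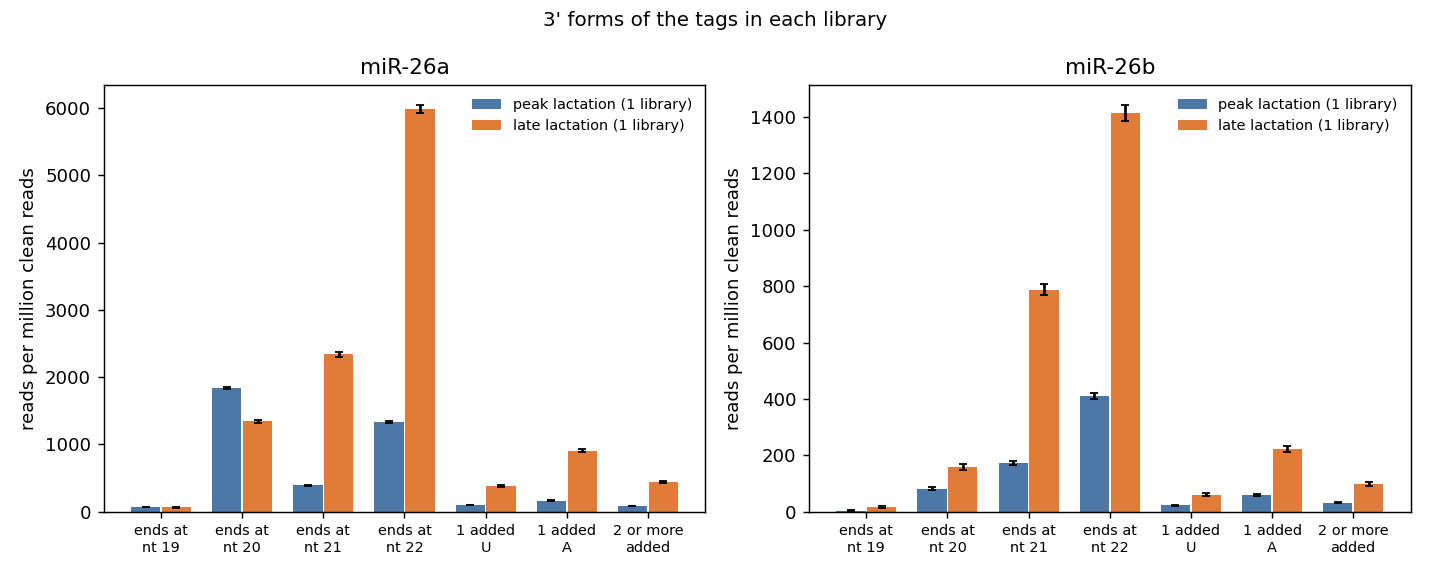
Reads per 1000000 clean reads of the 3′ forms of miR-26a (left) and miR-26b (right) in 1 library of each stage, with exact Poisson 95% intervals as error bars. In miR-26a the form that ends at nt 20 was the highest bar of peak lactation and was lower at the late stage (1842 against 1343 RPM over all tags of that form), while every form that ends at nt 21 or later was higher.

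The same shares were taken in the other 78 groups with a fixed 5′ end and at least 1000 reads in both libraries. The share of reads 2 nt shorter than the leading form at the 3′ end was higher at the late stage in 59 of them and lower in 19, with a median difference of 0.458 percentage points. The difference of miR-26a (-34.2 points) lay below 77 of the 78 groups, and that of miR-26b (-4.56 points) lay below 71. This comparison was not planned. It uses the form of miR-26a that ends at nt 20, already seen to differ most within miR-26a. The places of miR-26a among the groups, here and for all shorter forms, are therefore descriptions only. The single group below miR-26a was led by aAACCGTTaccattactgagttt, chosen for mention after its values were seen, in which this share was 68.0% at the peak stage and 11.1% at the late stage. Counting all forms shorter than the leading form, 45 of the 78 groups had a larger share at the late stage and 33 a smaller one. The shorter forms of miR-26a went from 57.6% to 32.7%, a difference that 3 of the 78 groups exceeded, and those of miR-26b from 32.4% to 34.7%.

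Bases added at the 3′ end were read as those that follow the longest stretch that matches the leading form. A read with a changed base after nt 17 was counted in the same way, with that base and all after it taken as added. An added A after nt 21, for example, may also be a changed base at nt 22. The hairpins of the members were not used here, so whether such a base is encoded in the gene was not tested. The most abundant tags of this kind are shown, with 1 added U or 1 added A as their last base.
miR-26a, added U after nt 22: tTCAAGTAatccaggataggctt
miR-26a, added A after nt 21: tTCAAGTAatccaggataggca
miR-26b, added U after nt 22: tTCAAGTAattcaggataggttt
miR-26b, added A after nt 21: tTCAAGTAattcaggataggta
Of these, the tag of miR-26a with an added U had 92.0 RPM at the peak stage and 353 RPM at the late stage, and that with an added A had 83.3 and 494 RPM. The tag of miR-26b with an added U had 22.1 and 58.4 RPM, and that with an added A had 25.9 and 92.1 RPM. All 4 were at least 2-fold higher at the late stage, as were both members as a whole, so shares within a member are given next.

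Over all tags of miR-26a, reads with 1 added U amounted to 102 RPM at the peak stage and 377 RPM at the late stage, which is 2.53% (2.42% to 2.65%) and 3.27% (3.15% to 3.39%) of its reads. In miR-26b they amounted to 22.4 and 60.3 RPM, or 2.79% (2.53% to 3.06%) and 2.15% (1.96% to 2.36%). The share of all reads with an added U was therefore higher at the late stage for miR-26a and lower for miR-26b, each by less than 1 percentage point. Among reads that match the leading form to nt 22, it was lower at the late stage in both. It was 6.22% and 5.36% there in miR-26a, and 4.84% and 3.77% in miR-26b. In the other 78 groups the median share of all reads was 1.62% at the peak stage and 2.82% at the late stage, with 44 groups higher and 34 lower at the late stage. The members lay between the quartiles of these groups at the peak stage (0.535% and 8.003%), whose highest value was 44.9%.

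Reads scored with 1 added A were more frequent than those with 1 added U in both members. A U after nt 21, and in miR-26b also after nt 20, matches the leading form and was never scored as added. After nt 22 both could be scored. There U led in miR-26a, with 2.30% of its reads against 0.798% for A at the peak stage. At the late stage these were 3.15% and 2.46%. In miR-26b U led at the peak stage (2.77% against 0.857%) and A at the late stage (3.31% against 2.15%). Over all tags, reads with 1 added A amounted to 165 RPM of miR-26a at the peak stage and 907 RPM at the late stage, or 4.12% (3.98% to 4.26%) and 7.87% (7.69% to 8.06%) of its reads. For miR-26b the values were 59.0 and 222 RPM, or 7.36% (6.95% to 7.78%) and 7.95% (7.59% to 8.33%), with overlapping intervals. The groups set beside them had a median of 4.30% at the peak stage and 6.04% at the late stage, and 53 of 78 were higher at the late stage. The difference of miR-26a, 3.76 percentage points, was larger than that of 62 of the 78 groups, and that of miR-26b, 0.595 points, was larger than that of 35. These shares are of all reads and also depend on where the reads end, as given in the next paragraph. An added G was read in 0.271% of miR-26a at the peak stage and 0.308% at the late stage, and in 2.13% and 0.673% of miR-26b. An added C was read in at most 0.450% of either member. In miR-26b, 14 of 17 such reads at the peak stage and 66 of 93 at the late stage had it after nt 20. The leading form of miR-26a itself has C at that place, nt 21.

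The added bases depended on where the read ended. Among reads of miR-26a that match the leading form to nt 21 and no further, 16.1% carried 1 added A at the peak stage (15.4% to 16.8%) and 16.3% at the late stage (15.8% to 16.8%). At nt 22 of miR-26a the share with an added A was 2.15% and 4.19%, and at nt 20 it was 0.533% and 5.04%. In miR-26b it was 13.2% and 11.8% at nt 20, with overlapping intervals, 11.6% and 10.1% at nt 21, and 1.498% and 5.80% at nt 22. At nt 21, therefore, the share with an added A was not higher at the late stage beyond counting error in either member, while at nt 22 it was higher in both. At nt 20 it was higher in miR-26a and not in miR-26b. At nt 19, which few reads ended at, an A followed 31.7% and 28.9% of the reads of miR-26a, with overlapping intervals, and 75.5% (247 of 327 reads) and 23.6% (41 of 174) of those of miR-26b. An added U was read mostly after nt 22, where it followed 6.22% of the reads of miR-26a at the peak stage and 5.36% at the late stage, and 4.84% and 3.77% of those of miR-26b. At that position the share with an added U was lower at the late stage in both members. After nt 21 an added U cannot be told from the leading form, which has U there itself. In miR-26b, with U at nt 21 as well, the same holds after nt 20. Shares at nt 20, 21 and 22 of miR-26b are therefore not fully comparable with those of miR-26a.

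**Figure D3:**
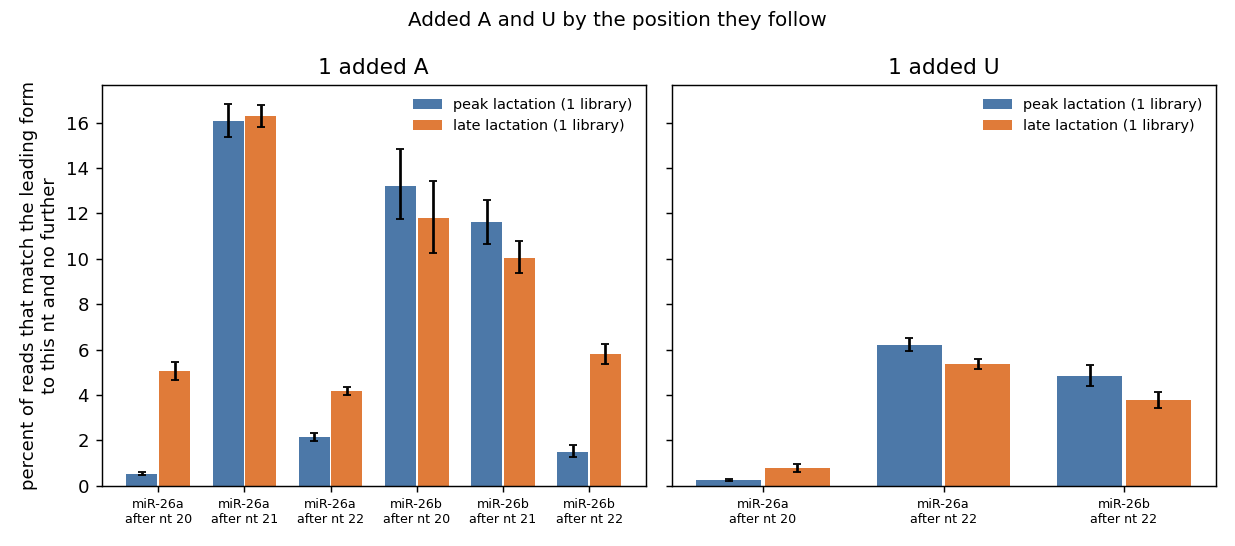
Percent of reads with 1 added A (left) or 1 added U (right) among reads that match the leading form to the given nt and no further, for 1 library of each stage, with exact binomial 95% intervals as error bars. The added A after nt 22 was more frequent at the late stage in miR-26a (2.15% and 4.19%) and in miR-26b (1.498% and 5.80%), and the added U after nt 22 was less frequent.

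Additions of 2 or more bases were found in 2.15% of the reads of miR-26a at the peak stage and in 3.82% at the late stage, and in 4.02% and 3.47% of those of miR-26b. These include full-length reads with 1 changed base before nt 22, which were not counted apart. For miR-26b they also include reads that carry the 3′ end of miR-26a. In miR-26a the pair AU made up 0.551% and 1.54%, and the pair AA made up 0.373% and 1.10%. In miR-26b the pair AA made up 0.524% and 1.28%. The pair UU stayed at or below 0.246% in both members, and at 8 reads or fewer in miR-26b. Taken over any number of added bases, 9.15% of the reads of miR-26a at the peak stage and 15.4% at the late stage carried some, against 16.4% and 14.7% in miR-26b.

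Within the tags counted, the 5′ end, which sets the seed, was nearly fixed. Reads that begin at nt 3 or later lack nt 2 and were not members, so their share was not measured. At the peak stage 99.1% of the reads of miR-26a and 99.5% of those of miR-26b began at nt 1, and at the late stage 97.9% of the reads of each did. Reads that began at nt 2, whose seed is shifted by 1 base, made up 0.377% and 0.578% of miR-26a and 0.196% and 0.358% of miR-26b. Reads extended at the 5′ end made up 0.421% of miR-26a at the peak stage and 1.45% at the late stage, and 0.255% and 1.61% of miR-26b. An extra A before nt 1 was read 3 times at the peak stage and 396 times at the late stage for miR-26a, and 0 and 114 times for miR-26b. A count of 0 was taken to allow up to 3 reads, or 0.158 RPM, a one-sided limit and not the interval used elsewhere. An extra C was read 214 and 389 times for miR-26a, and 19 and 99 times for miR-26b. The share of 5′ extended reads was also higher at the late stage in 65 of the other 78 groups, with medians of 0.156% and 0.779%. Those groups had been kept only where at least 90% of the reads began at the same base. The filtering records of the libraries moved with it, since reads removed as 5′ adaptor contaminants were 0.0494% of all reads of high quality at the peak stage and 14.03% at the late stage, and reads without an insert were 0.628% and 7.73%. Reads removed as shorter than 18 nt were 0.759% and 4.14%. The part of these differences in the results was not tested.

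**Figure D4:**
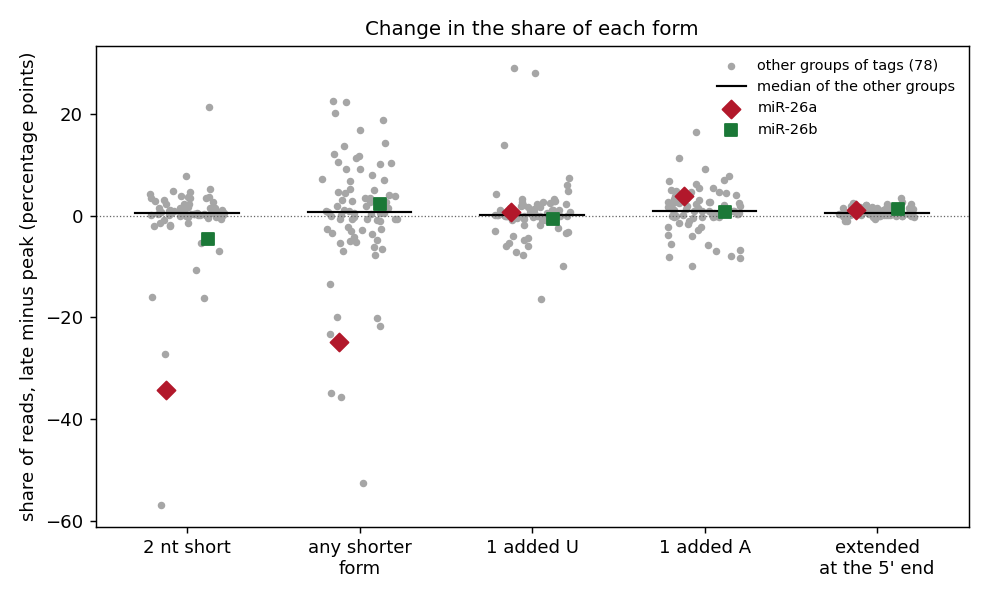
Difference in the share of reads between late and peak lactation (late minus peak, percentage points) for 5 kinds of form, in miR-26a, miR-26b and 78 other groups of tags, with the median of the other groups as a line. miR-26a lies at -34.2 points for the form 2 nt short of the leading form, below 77 of the other groups, and miR-26b at -4.56 points. The comparison of this form was not planned, and the form was already seen to differ in miR-26a.

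Reads with 1 mismatch in nt 2 to 17, apart from nt 11, were not counted as members. They came to 1.15% of the reads of miR-26a at the peak stage and 1.24% at the late stage, and to 1.18% and 1.73% for miR-26b. The most frequent of them for miR-26a over both libraries together was A13C, with 187 and 317 reads, and C12T, with 196 and 199 reads, exceeded it at the peak stage. The same mismatches led in miR-26b, with 27 and 83 reads for A13C and 37 and 95 reads for C12T. Mismatches inside the seed added up to 0.263% and 0.280% for miR-26a and to 0.373% and 0.358% for miR-26b. Changes at the seed were thus rare at both stages, and whether they are read errors was not tested.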

How the data were processed

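Small RNA of 18 to 30 nt from the pooled RNA of 5 goats per stage was sequenced on an Illumina 1G Genome Analyzer. The authors removed low-quality and adaptor reads, trimmed the 3′ adaptor, collapsed identical reads and deposited counts of reads of each tag, without normalization, mapping or annotation. The sources used here name no tool versions for this work.

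Tags were joined by sequence and divided by clean reads. Tags holding the miR-26 seed were grouped by nt 2 to 17, and the leading pair of groups was named from the family's known base at nt 11. Read counts that the study lists by name served as a check on the naming and were not used further. Members and lists were chosen with earlier results of these data known. No mature or hairpin sequences were used, so the leading form replaced the reference sequence, and a list of MYC-repressed miRNAs was not analysed here. Other groups were skipped where a group 100 times as large shared a stretch of 14 nt or lay within 1 mismatch. The requirement of a fixed 5′ end was set after the data were seen.

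The choice of tags and groups to name was limited to the members, their leading form and, in each library, the 5 tags with most reads. It also took in the most abundant tag with an added U or A, the neighbours in level and the 3 nearest groups in log2 ratio. Not all of these are given above, and 1 group outside them is marked as chosen after its values were seen. Intervals were Clopper-Pearson for shares and ratios and Poisson for levels. That of the change of the member ratio between the stages was a conditional exact interval of an odds ratio. The 2-fold rule and the reading of ends were tested on simulated data. The simulated ends had only A or T added and no changed base inside the tag. Cases where the added base equals the next base of the leading form were left out, so errors of these kinds were not tested. No edgeR or DESeq2 test was run, since each stage is 1 library. Alternatives used TMM factors (edgeR 4.0.16), median-ratio factors (DESeq2 1.42.0), other totals, other sums of tags and thinning. Scripts ran in Python 3.11.15 with scipy 1.17.1, pandas 2.3.3, numpy 2.4.6 and matplotlib 3.10.9, and in R 4.3.3.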

Additional observations from a re-analysis of the deposited data

How the results depend on the processing

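No paired analysis was possible because each stage is a single pooled library. The log2 ratio of late over peak lactation kept its direction under every alternative run. For miR-26a it was 1.49 with median-ratio factors, 1.61 with totals that leave out the top 10 tags by reads in each library, 2.15 with the leading tag only and 2.23 without tags that end at nt 20. For miR-26b it was 1.89, 1.76 and 1.87 under the last 3 of these. With TMM factors, with 1 mismatch outside nt 11 and with tags of at least 10 reads, both stayed within the counting interval. The log2 change of the member ratio was -0.28 over all tags and turned to 0.39 with the leading tag only and to 0.35 without tags that end at nt 20, as the 20-nt form of miR-26a is then left out. The member ratio itself was 3.24 and 3.02 at the peak stage and 4.23 and 3.85 at the late stage under these choices, the last of which was added after the data were seen. Counting only bases added after the full leading form, the share with an added U of miR-26a was 2.30% at the peak stage. The share with an added A was then 0.798% and 2.46% for miR-26a in peak and late lactation, and 0.857% and 3.31% for miR-26b. The peak library held 275 tags of miR-26a and 128 of miR-26b, and 171.2 and 78.8 on average over 10 draws at the late depth, against 438 and 192 at the late stage. Thinning also lowers the reads of each member. Before it, miR-26a had 76467 reads at the peak stage and 85060 at the late stage, and miR-26b 15279 and 20664. No sample could be left out with 1 library per stage. With the one-sided limit of 3 reads, a count of 0 allowed up to 0.158 RPM at the peak stage and 0.406 RPM at the late stage. No value here measures the variation between goats.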
